A study of Homo sapiens with 4 samples.

Results

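The 10 genes described here were grouped as feedback inhibitors of the Wnt pathway, namely AXIN1, AXIN2, NKD1, NKD2, RNF43, ZNRF3, DKK1, DKK4, APCDD1 and TNFRSF19. The word inhibitors is used below as the name of this group, and whether each gene feeds back on the pathway in these cells was not tested. They were picked by symbol from a table of 58365 genes, and each symbol had a single row. The data came from H1, an established human embryonic stem cell line, cultured for 2 days in Custom mTeSR1 medium with activin A at 40 ng/ml and BMP4 at 50 ng/ml, which drives the cells from pluripotency toward mesoderm as the first step of hematopoietic differentiation. The labels give these doses, while the methods of the study give the same 2 values the other way round. In the DMSO group (n = 2 libraries) the cells carried no Wnt inhibitor, and in the IWP2 group (n = 2 libraries) IWP2 was added over the same 2 days at a dose that the labels do not state. The labels do not say whether the 2 libraries of a group came from separate cultures, so the p-values measure the spread between these libraries, which may be technical. All cells were of 1 line, without a transgene or deletion.

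Wnt ligands need a lipid that the acyltransferase Porcupine attaches before they can be secreted, and IWP2 blocks Porcupine. A secreted ligand binds Frizzled and LRP5 or LRP6 at the cell surface, the destruction complex stops degrading beta-catenin, and beta-catenin then switches on target genes together with TCF and LEF factors. Several of those targets encode inhibitors of the pathway, so their RNA is widely used as a reading of Wnt activity. During gastrulation the pathway is needed in the primitive streak, where mesoderm forms, and the inhibitors limit how far and how long it acts.

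Expression is given as FPKM, fragments per kilobase of transcript scaled to the mapped fragments of the library, which corrects for transcript length and so allows levels of different genes to be compared. The steps between low FPKM values of single-exon genes placed the depth of the 4 libraries between about 20500000 and 25400000 fragments. Rows with a mean of at least 0.5 FPKM over the 4 libraries were tested with limma on log2(FPKM + 1), and a gene was called at a Benjamini-Hochberg adjusted p under 0.05. Of 15980 tested rows, 1175 were called lower with IWP2 (7.35%) and 929 higher (5.81%), or 13.2% in either direction. Without DMSO replicate 1 the calls numbered 696, without DMSO replicate 2 they numbered 432, without IWP2 replicate 1 they numbered 119 and without IWP2 replicate 2 they numbered 94.

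Of the 10 inhibitors, 5 were called lower with IWP2 (AXIN2, NKD1, DKK1, DKK4 and APCDD1), against 7.35% of all tested rows. None was called higher, against 5.81% of all tested rows, and 5 did not pass the test. At an unadjusted p under 0.05 by limma, 6 were lower, against 15.6% of all tested rows, and 0 were higher, against 13.1%. All 10 passed the filter on low values, DKK4 through its DMSO libraries alone. The 2 groups did not overlap for 6 inhibitors that were lower with IWP2, against 31.0% of all tested rows, and for 2 that were higher, against 27.6% of all tested rows. The median log2 fold change of the 10 inhibitors was -0.90, and that of all tested rows was -0.01. The count of 5 came to 3 without DMSO replicate 1 (AXIN2 and DKK4 lost), 4 without DMSO replicate 2 (AXIN2 lost) and 2 without either single IWP2 replicate (AXIN2, DKK4 and APCDD1 lost), so only the calls of NKD1 and DKK1 were made whichever single library was left out. In bulk RNA, fewer cells that express a gene cannot be told apart from less RNA in each cell.

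**Figure D1:**
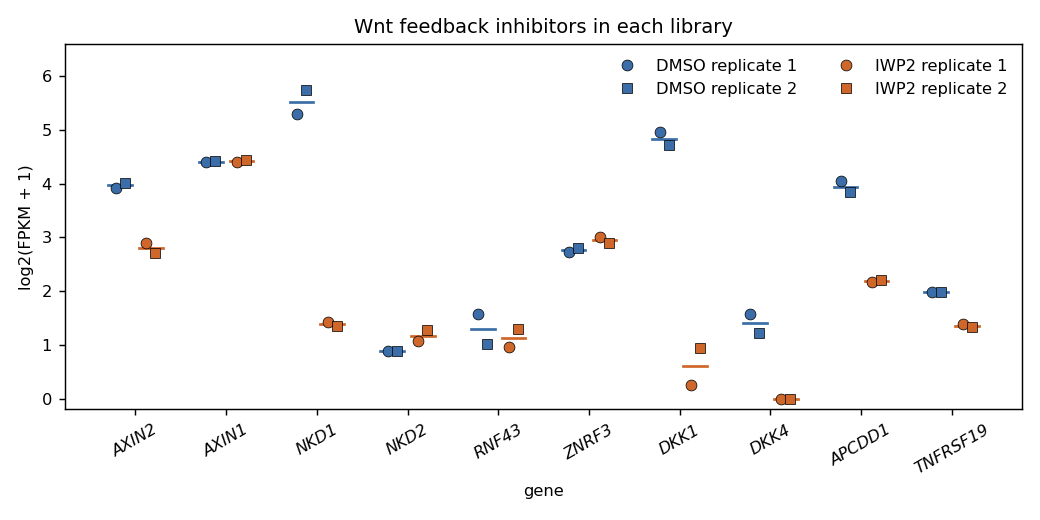
Level of each inhibitor on the log2(FPKM + 1) scale, with 1 point per library (DMSO blue, IWP2 orange, circles replicate 1, squares replicate 2) and a line at each group mean. NKD1 and DKK1 stood highest in the DMSO libraries and below 2 on this scale with IWP2, while the 4 points of AXIN1 lay together.

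AXIN1 and AXIN2 are the scaffolds of the destruction complex, which hold APC, GSK3 and beta-catenin together. AXIN1 is expressed broadly, and AXIN2 is the paralogue that beta-catenin induces. AXIN2 (ENSG00000168646.12, GRCh38 chromosome 17, 65528563 to 65561647, minus strand) measured 14.2 and 15.2 FPKM in the DMSO libraries and 6.45 and 5.58 FPKM in the IWP2 libraries. Both IWP2 libraries lay below both DMSO libraries. The mean dropped from 14.7 ± 0.768 to 6.01 ± 0.615 FPKM (SD, n = 2 each), which left 40.9% of the DMSO level, and the log2 fold change was -1.16 (SE 0.12, limma adjusted p = 0.00638). The fold change stayed between -1.28 and -1.07 in every alternative, but the call was lost without DMSO replicate 1 (limma adjusted p = 0.0590), without DMSO replicate 2 (0.0721), without IWP2 replicate 1 (0.0859), without IWP2 replicate 2 (0.101) and with no filter on low values (0.0554).

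AXIN1 (ENSG00000103126.14, GRCh38 chromosome 16, 287440 to 352673, minus strand) measured 20.2 and 20.4 FPKM with DMSO and 20.1 and 20.7 FPKM with IWP2. The ranges of the groups overlapped, and the log2 fold change was 0.0075 with a 95% interval of -0.22 to 0.23 (limma adjusted p = 0.967). The ratio of AXIN2 to AXIN1 was 0.702 and 0.747 in the DMSO libraries and 0.321 and 0.270 in the IWP2 libraries. The log2 ratio of FPKM + 1 was -0.44 ± 0.059 with DMSO and -1.61 ± 0.16 with IWP2 (SD, n = 2), a difference of -1.17. With 2 libraries against 2, an exact two-sided permutation test of a single value cannot give a p below 0.333, so ratios are described without a test.

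NKD1 and NKD2 (naked cuticle homologues) bind Dishevelled, the adaptor that passes the signal from Frizzled to the destruction complex. NKD1 (ENSG00000140807.6, GRCh38 chromosome 16, 50548330 to 50649249, plus strand) had the highest level of the 10 genes in DMSO, with 38.2 and 52.3 FPKM. The IWP2 libraries measured 1.70 and 1.56 FPKM, far below the DMSO range. The group means were 45.2 ± 9.95 and 1.63 ± 0.0971 FPKM (SD, n = 2), a 27.8-fold lower level with IWP2. On the log2(FPKM + 1) scale NKD1 fell by 4.12 (SE 0.17, limma adjusted p = 0.000650), which placed it 29th from the most lowered of the 15980 rows. Its call was made in each of the 10 alternatives, with adjusted p between 0.000267 and 0.0471.

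NKD2 (ENSG00000145506.13, GRCh38 chromosome 5, 1008829 to 1038943, plus strand) was low in every library. It measured 0.855 and 0.852 FPKM with DMSO and 1.10 and 1.41 FPKM with IWP2. The IWP2 values lay above the DMSO values, and the difference did not pass the test (log2 fold change 0.28, 95% interval -0.17 to 0.73, limma adjusted p = 0.363). NKD1 exceeded NKD2 by 44.6 and 61.3 times in the DMSO libraries and by 1.54 and 1.10 times in the IWP2 libraries. NKD1 was thus in large excess with DMSO and near the level of NKD2 with IWP2, a difference of -4.40 in the log2 ratio of FPKM + 1.

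RNF43 and ZNRF3 are membrane E3 ubiquitin ligases that remove Frizzled and LRP6 from the cell surface, and R-spondins acting through LGR4, LGR5 and LGR6 clear these ligases in turn. ZNRF3 (ENSG00000183579.15, GRCh38 chromosome 22, 28883592 to 29057487, plus strand) measured 5.66 and 5.97 FPKM with DMSO and 7.04 and 6.49 FPKM with IWP2. Both IWP2 libraries lay above the DMSO libraries, yet the log2 fold change of 0.19 had a 95% interval of -0.12 to 0.49 and was not called (limma adjusted p = 0.373). RNF43 (ENSG00000108375.12, GRCh38 chromosome 17, 58352500 to 58417595, minus strand) measured 1.99 and 1.03 FPKM with DMSO and 0.955 and 1.45 FPKM with IWP2. The groups overlapped and the replicates of each differed by more than the group means did (log2 fold change -0.17, 95% interval -0.83 to 0.49, limma adjusted p = 0.718). Without DMSO replicate 1 the difference turned to 0.11.

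The last 594 bases of RNF43 overlap SUPT4H1, a transcription elongation factor gene that measured 64.1 and 68.3 FPKM with DMSO and 58.0 and 70.1 FPKM with IWP2. Reads within that overlap may come from either gene, so the low RNF43 level is uncertain. The 7 other rows that overlap a member (next to AXIN2, NKD1, RNF43 and ZNRF3) measured at most 0.538 FPKM in any library. ZNRF3 exceeded RNF43 in all 4 libraries, with RNF43 at 0.351 and 0.173 of ZNRF3 in DMSO and 0.136 and 0.224 in IWP2. The ratios of the groups overlapped.

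DKK1 and DKK4 are secreted proteins that bind LRP5 and LRP6 and keep Wnt from engaging them. DKK4 (ENSG00000104371.4, GRCh38 chromosome 8, 42374068 to 42377232, minus strand) measured 1.99 and 1.34 FPKM with DMSO and was listed at 0 in both IWP2 libraries. The DMSO values correspond to about 28.6 and 17.2 fragments for a transcript of 894 bases, so the gene was read from few fragments. None of 16 broadly expressed genes checked, such as ACTB and GAPDH, was listed at 0 in any library. All 16 lay far above the level of DKK4, so they cannot show whether a gene that low would be missed. The difference on the log2(FPKM + 1) scale was -1.40 (SE 0.21, limma adjusted p = 0.0160), and since that number depends on the pseudocount (-4.12 with 0.1), no fold is given. The call was lost without DMSO replicate 1 (limma adjusted p = 0.0552), without IWP2 replicate 1 (0.136), without IWP2 replicate 2 (0.136) and with no filter on low values (0.0718).

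DKK1 (ENSG00000107984.9, GRCh38 chromosome 10, 52314296 to 52318042, plus strand) measured 30.1 and 25.4 FPKM with DMSO and 0.200 and 0.919 FPKM with IWP2. Every IWP2 value was below 1 FPKM, and the 2 IWP2 libraries differed from each other several-fold at that level. For a transcript of 1790 bases, these low values correspond to about 7.74 and 30.6 fragments, against 1056 and 793 in the DMSO libraries. The mean dropped from 27.8 ± 3.32 to 0.560 ± 0.508 FPKM (SD, n = 2), a 49.6-fold lower level. DKK1 fell by 4.24 on the log2(FPKM + 1) scale (SE 0.25, limma adjusted p = 0.00149), the 27th most lowered row, and with a pseudocount of 0.1 the log2 fold change was -5.65. Its call was made in each of the 10 alternatives. With DKK4 listed at 0 in both IWP2 libraries, no ratio of DKK1 to DKK4 is given.

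The promoter of DKK1 is shown because it was the only one among the members found in a RefSeq promoter table (GRCh38.p14) that held the letters bound by TCF and LEF factors. The letters searched on both strands were CTTTG followed by AA, AT, TA or TT, which do not overlap in the matches found. The 250 bases before the start of DKK1 (chr10:52314031-52314280, plus strand) held 2 matches, starting 95 and 76 bases before the start and printed in capitals. The promoter of APCDD1 (chr18:10454385-10454634, plus strand), another inhibitor that fell, held none and is shown beside it.
DKK1: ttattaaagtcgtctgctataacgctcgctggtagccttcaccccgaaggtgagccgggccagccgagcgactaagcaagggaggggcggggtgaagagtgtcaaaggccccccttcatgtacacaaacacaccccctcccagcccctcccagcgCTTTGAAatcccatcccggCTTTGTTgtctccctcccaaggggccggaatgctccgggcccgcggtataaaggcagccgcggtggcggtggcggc
APCDD1: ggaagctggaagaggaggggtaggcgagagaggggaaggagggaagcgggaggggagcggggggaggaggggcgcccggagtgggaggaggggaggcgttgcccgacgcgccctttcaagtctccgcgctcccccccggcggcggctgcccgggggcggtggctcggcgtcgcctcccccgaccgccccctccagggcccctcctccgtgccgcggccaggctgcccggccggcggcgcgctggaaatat
Of 35116 promoters in the table, 4199 (11.96%) held at least 1 match in the same 250 bases and 1.21% held 2 or more. The table had 8 promoters for 6 members, and those of AXIN1, NKD2, RNF43 and TNFRSF19 held no match. AXIN2, NKD1, ZNRF3 and DKK4 had no entry. A match describes the letters in this window and not a bound site, and the lack of one says nothing of sites elsewhere.

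APCDD1 is a membrane glycoprotein that binds Wnt and LRP and blocks the signal at the cell surface. APCDD1 (ENSG00000154856.12, GRCh38 chromosome 18, 10454628 to 10489948, plus strand) measured 15.5 and 13.4 FPKM with DMSO and 3.52 and 3.62 FPKM with IWP2. The groups were well apart, and the mean dropped from 14.4 ± 1.48 to 3.57 ± 0.0739 FPKM (SD, n = 2), a 4.04-fold lower level. The log2 fold change was -1.75 (SE 0.13, limma adjusted p = 0.00253). Without IWP2 replicate 1 the adjusted p was 0.0743 and without IWP2 replicate 2 it was 0.0798, while the call was made without DMSO replicate 1 (0.0401) and without DMSO replicate 2 (0.0423).

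TNFRSF19 (also called TROY) is a receptor of the tumor necrosis factor receptor family and a Wnt target in several stem cell populations. TNFRSF19 (ENSG00000127863.15, GRCh38 chromosome 13, 23570370 to 23676104, plus strand) measured 2.97 and 2.95 FPKM with DMSO and 1.61 and 1.51 FPKM with IWP2. Both IWP2 libraries lay below both DMSO libraries, at 52.8% of the DMSO mean. The log2 fold change of -0.63 (SE 0.15) had an adjusted p of 0.0532 by limma and was not called. It crossed the threshold with a pseudocount of 0.1 (limma adjusted p = 0.0499) and without the mean-variance trend (0.0307).

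**Figure D2:**
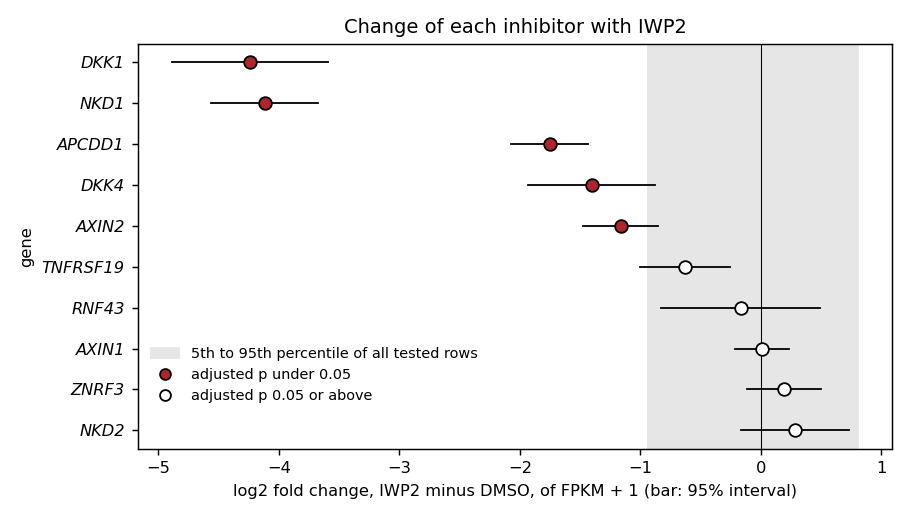
Log2 fold change of each inhibitor (IWP2 minus DMSO, FPKM + 1) with its 95% interval from limma. Filled points passed an adjusted p of 0.05, and the grey band spans the 5th to 95th percentile of all 15980 tested rows, from -0.94 to 0.81. The 5 filled points, from DKK1 at -4.24 to AXIN2 at -1.16, lay to the left of the band.

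The order of the inhibitors by FPKM differed between the groups. With DMSO the order was NKD1, DKK1, AXIN1, AXIN2, APCDD1, ZNRF3, TNFRSF19, DKK4, RNF43 and NKD2. The ranges of AXIN2 and APCDD1 overlapped there, as did those of DKK4 and RNF43. With IWP2 the order was AXIN1, ZNRF3, AXIN2, APCDD1, NKD1, TNFRSF19, NKD2, RNF43, DKK1 and DKK4. The ranges of NKD1 and TNFRSF19 overlapped in this group, as did those of NKD2 and RNF43, and ZNRF3 and AXIN2 were apart only by 6.49 against 6.45 FPKM.

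Summed over the 10 genes, the inhibitors amounted to 131.5 and 138.8 FPKM with DMSO and 42.7 and 43.2 FPKM with IWP2. NKD1 made up 33.3% ± 6.09 of that sum with DMSO and 3.79% ± 0.263 with IWP2 (SD, n = 2). DKK1 made up 20.6% ± 3.24 and then 1.30% ± 1.17 of the sum. AXIN1, which was not called, made up 15.3% and 14.7% of the sum in the DMSO libraries and 47.1% and 47.9% in the IWP2 libraries. The share of ZNRF3 was 4.30% with DMSO and 15.8% ± 1.07 with IWP2. AXIN2, whose level was called lower, made up 10.9% ± 0.153 of the sum with DMSO and 14.0% ± 1.57 with IWP2.

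**Figure D3:**
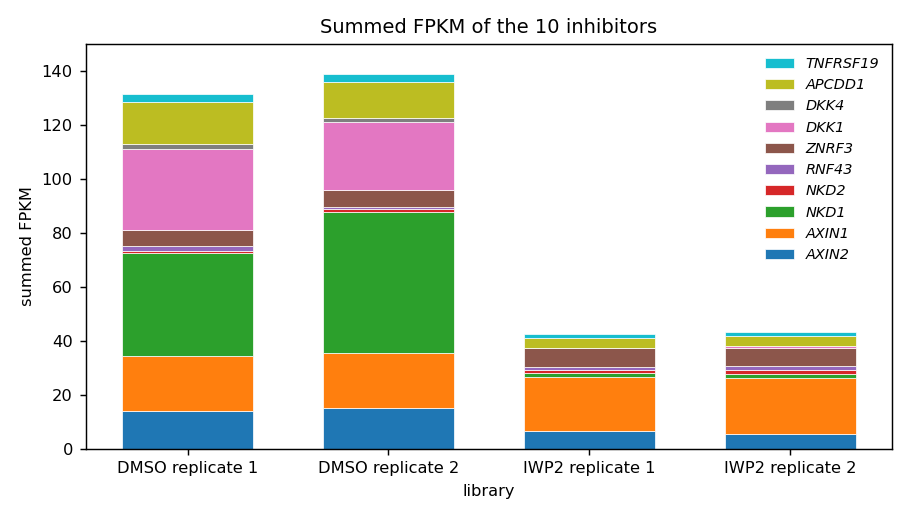
Summed FPKM of the 10 inhibitors in each library, stacked by gene. The DMSO bars reached 131.5 and 138.8 FPKM, mostly NKD1, DKK1 and AXIN1, and the IWP2 bars reached 42.7 and 43.2 FPKM, of which AXIN1 was the largest block.

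**Figure D4:**
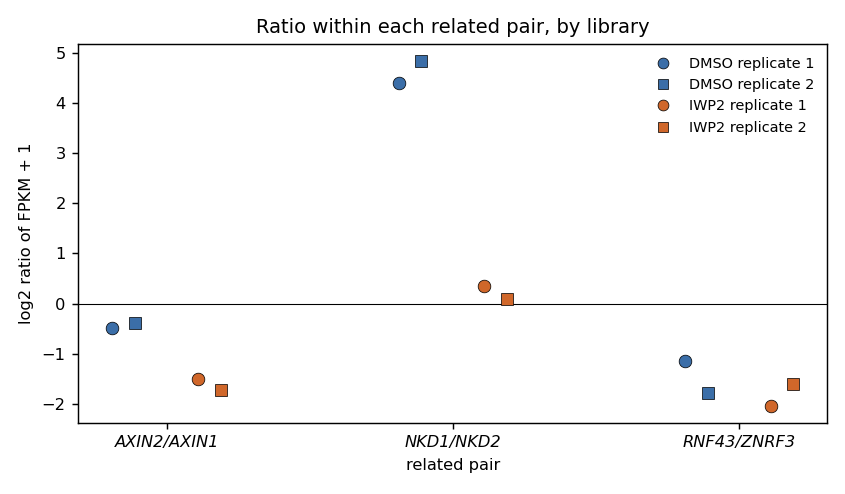
Log2 ratio of FPKM + 1 within 3 pairs of related inhibitors, 1 point per library (DMSO blue, IWP2 orange, circles replicate 1, squares replicate 2), with a line at equal levels. The ratio of NKD1 to NKD2 lay nearer to 0 in the IWP2 libraries, that of AXIN2 to AXIN1 averaged -0.44 with DMSO and -1.61 with IWP2, and the points of RNF43 to ZNRF3 overlapped.

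The 5 tested genes whose profile over the 4 libraries lay nearest to that of AXIN2, by Euclidean distance of centred log2(FPKM + 1) values, were PREX1, SKA1, SLC36A1, DLC1 and IGSF3. Their distances ran from 0.0455 for PREX1 to 0.0795 for IGSF3. PREX1 measured 30.1 and 33.0 FPKM with DMSO and 14.9 and 12.9 FPKM with IWP2. With 4 libraries in 2 groups, this likeness is mostly a like size of the group difference.

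Among 61 other Wnt pathway genes in the table, 50 were tested, of which 16 were called lower with IWP2, 6 were called higher and 28 were not called. The calls came to 22 genes, against 13.2% of all tested rows (7.35% lower and 5.81% higher). The same shares are the background for the counts of each pathway list below. Without DMSO replicate 1 they numbered 13, without DMSO replicate 2 they numbered 9, without either single IWP2 replicate they numbered 3, and with no filter on low values they numbered 7. The median log2 fold change of the 50 genes was -0.15. Of the 16 called lower, 8 (RSPO3, LGR5, TRABD2B, LEF1, SP5, SP8, CDX1 and CDX2) averaged under 0.5 FPKM with IWP2 and so passed the filter on low values through their DMSO libraries alone.

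In the destruction complex and the turnover of beta-catenin, where AXIN1 and AXIN2 act, only APC of 12 tested genes was called. APC, the tumor suppressor that binds beta-catenin within the complex, averaged 8.83 ± 1.65 FPKM with DMSO and 4.19 ± 0.424 FPKM with IWP2 (SD, n = 2) (log2 fold change -0.91, limma adjusted p = 0.0279). The other 11 genes, among them GSK3B and CTNNB1, did not pass the test. Of 7 tested Dishevelled genes and Dishevelled-binding genes, the group of NKD1 and NKD2, CXXC5 was called higher (log2 fold change 0.52, limma adjusted p = 0.0411) and none was called lower. DVL1, DVL2 and DVL3 were not called, and neither was DACT1 (log2 fold change -0.61, limma adjusted p = 0.0809). The median log2 fold change of the 7 genes was -0.19.

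In the R-spondin axis, which acts on RNF43 and ZNRF3, 3 of 4 tested genes fell. LGR5, an R-spondin receptor and itself a Wnt target, measured 21.5 and 27.8 FPKM with DMSO and 0.105 and 0.0763 FPKM with IWP2 (log2 fold change -4.54). LGR4 measured 30.2 and 32.0 FPKM with DMSO and 15.6 and 14.2 FPKM with IWP2 (log2 fold change -1.01). RSPO3, an R-spondin ligand, averaged 1.29 ± 0.147 FPKM with DMSO and 0.0808 ± 0.0454 FPKM with IWP2 (SD, n = 2), with a log2 fold change of -1.08. RSPO3 and LGR5 are thus among the genes tested because of their DMSO level.

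Among DKK relatives and their receptors, 1 of 6 tested genes was called, the DKK target LRP5, which was higher with IWP2 (log2 fold change 0.47, limma adjusted p = 0.0462). LRP6, also bound by DKK1 and DKK4, averaged 16.6 ± 3.33 FPKM with DMSO and 9.91 ± 2.55 FPKM with IWP2 (SD, n = 2). It was not called (log2 fold change -0.70, limma adjusted p = 0.106). DKK3 measured 30.5 and 26.3 FPKM with DMSO and 36.2 and 35.1 FPKM with IWP2 and was not called. DKK2 was below the filter. Of 10 other extracellular Wnt antagonists tested, 5 fell and 2 rose. The largest changes among those called were in FRZB, a secreted Frizzled-related protein (log2 fold change -1.96), in TRABD2B, a metalloprotease that cleaves Wnt (-1.79), in SHISA2, which retains Frizzled in the endoplasmic reticulum (-1.69), and in NOTUM, which removes the lipid of Wnt (-1.06). The 2 that rose, DRAXIN (0.89) and SHISA3 (0.93), were named after their values were seen.

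Of 13 TCF/LEF factors and commonly used target genes, 9 fell, 2 rose and 2 were not called, and LGR5 and NOTUM are counted here again. SP5 measured 53.2 and 47.0 FPKM with DMSO and 0.379 and 0.363 FPKM with IWP2 (log2 fold change -5.22), a larger difference than that of any inhibitor. LEF1 had a log2 fold change of -3.14 and CDX2 of -2.42. The 2 that rose, TCF7L1 (1.15) and TCF7L2 (1.22), were named after their values were seen.

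**Figure D5:**
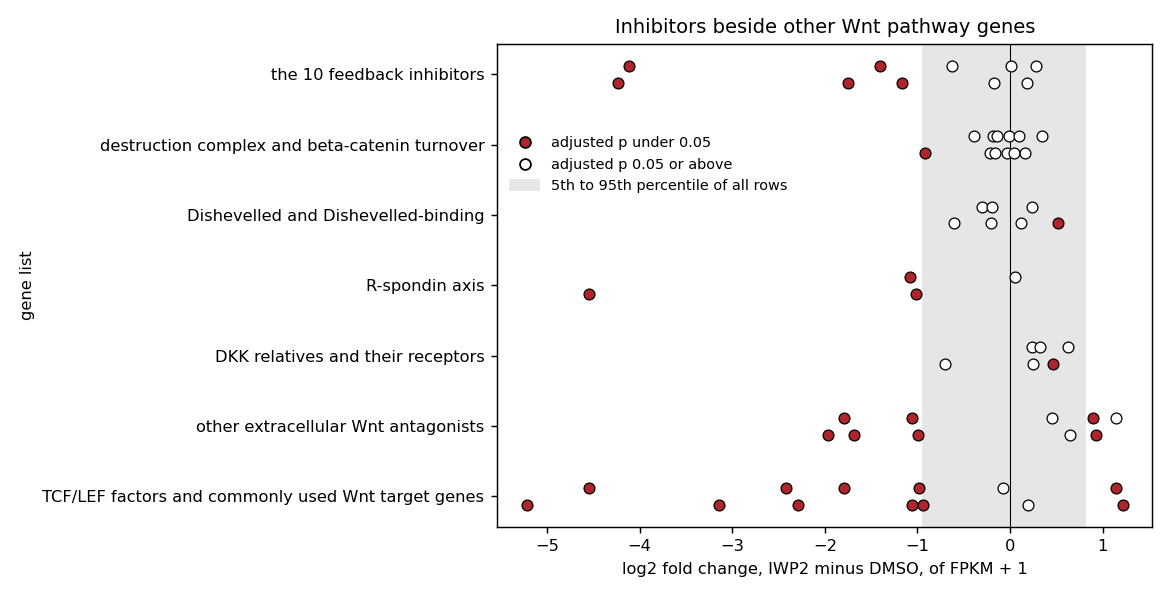
Log2 fold change (IWP2 minus DMSO, FPKM + 1) of every tested gene in 7 lists, with filled points for an adjusted p under 0.05 and a grey band for the 5th to 95th percentile of all tested rows. The 10 feedback inhibitors split into 5 called points at -1.16 or lower and 5 points between -0.63 and 0.28. All 12 destruction complex genes lay inside the band, and 11 of them were not called.

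Calls were also made among marker genes of cell state, where the background was again 7.35% of all tested rows lower and 5.81% higher. Of 13 tested primitive streak and mesoderm markers, 13 were called lower with IWP2. Among them, 4 (MESP1, MESP2, GSC and PDGFRA) averaged under 0.5 FPKM with IWP2 and passed the filter through their DMSO libraries alone. The list summed to between 1234 and 1567 FPKM with DMSO and between 157 and 180 FPKM with IWP2. APLNR, a mesoderm receptor, measured 379.7 and 512 FPKM with DMSO and 2.97 and 2.39 FPKM with IWP2. Of 8 pluripotency markers, 5 were called higher and 1 lower. SOX2, 1 of the 5 called higher, passed the filter through its IWP2 libraries alone. The list summed to between 1191 and 1371 FPKM with DMSO and between 2497 and 2502 FPKM with IWP2. POU5F1, the largest part of these sums, measured 751 and 571 FPKM with DMSO and 1854 and 1844 FPKM with IWP2. The next 2 markers by mean FPKM did not rise. LIN28A was not called (log2 fold change -0.046, limma adjusted p = 0.746). TDGF1 was the 1 called lower, from a mean of 212 FPKM with DMSO to 101 FPKM with IWP2 (log2 fold change -1.06, limma adjusted p = 0.0034).

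Of 6 tested definitive endoderm markers 5 were called lower, and the list summed to 1918 to 2307 FPKM with DMSO and 126 to 137 FPKM with IWP2. Of those 5, FOXA2 and HHEX passed the filter through their DMSO libraries alone. CER1 made up most of the DMSO sums, with 1612 and 2048 FPKM, and measured 38.6 and 34.2 FPKM with IWP2. SOX17 made up most of the IWP2 sums, with 79.7 and 94.9 FPKM, and measured 154.7 and 104.2 FPKM with DMSO. SOX17 was not called (log2 fold change -0.54, limma adjusted p = 0.167). Of 3 tested neural ectoderm markers 1 was called higher and 1 lower, with sums of 149 to 156 and 128 to 139 FPKM. The 1 called higher was NES, from a mean of 92.8 FPKM with DMSO to 130.6 FPKM with IWP2. The 1 called lower was OTX2, from 58.5 to 2.57 FPKM, so the sums join opposite changes. Of 6 tested amnion and trophoblast markers 2 were called higher and 1 lower, with sums of 331 to 403 FPKM with DMSO and 235 to 260 FPKM with IWP2. The 1 called lower was HAND1, which is also counted among the mesoderm markers, and without it the sums were 80.5 to 97.5 FPKM with DMSO and 134.3 to 140.7 FPKM with IWP2. Of 4 tested endothelial and hematopoietic markers 2 were called lower, with sums of 62.4 to 66.7 and 38.9 to 41.3 FPKM. KDR, 1 of the 2 called lower, made up most of these sums. It measured 53.2 and 60.4 FPKM with DMSO and 38.6 and 35.7 FPKM with IWP2. RUNX1, 1 of the 2 called lower, passed the filter through its DMSO libraries alone. The blood marker GATA1, named after its values were seen, was listed at 0 in all 4 libraries. The part of these shifts in the levels of the inhibitors was not tested.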

How the data were processed

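RNA of H1 cells at day 2 was sequenced in 4 libraries, 2 with DMSO and 2 with IWP2, from total RNA with an Illumina TruSeq kit that does not mark strand. The authors deposited 1 table of FPKM per gene, with replicates kept apart; its header names no unit or quantifier, and columns with a minus sign before IWP2 were taken as the DMSO group, with the replicate numbers of the column names. The submitters' processing notes name BWA, Bowtie, RSEM and hg19, but 96.9% of the gene positions equal those of GRCh38 in GENCODE 29, so GRCh38 is used, with starts counted from 1.

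Rows with a mean of at least 0.5 FPKM were fitted on log2(FPKM + 1) with limma 3.58.1 (R 4.3.3, moderated with a trend, group as the only term) across all 15980 rows, and p-values were adjusted by Benjamini-Hochberg. Fold changes on this scale understate those of low genes. The fit was tested on simulated data with the means and replicate spreads of these rows. Changes of 1 and of 2 log2 units were each added to 100 of 15658 simulated rows. The fit called 35% of added changes of 1 log2 unit, 84% of those of 2 log2 units and 0.058% of rows without a change. The changed rows were a smaller share than the 13.2% called in the data, which makes the adjusted threshold stricter in the simulation. These percentages therefore do not give the share of changes missed in the data. Depth was estimated from single-exon genes longer than 1500 bases, whose low values step by 1 fragment, with 270 bases subtracted from each length. Fragment numbers use the shortest coding transcript in GENCODE and are approximate.

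The alternatives were another pseudocount, other filters, no trend, median-ratio scaling, a replicate block and leaving out each library. The inhibitors and gene lists were chosen with earlier results of these data known. All inhibitors are named. Of each pathway list the called genes with the largest changes are named (at most 4), and of each marker list at most 3 by mean FPKM, apart from genes said to be named after their values were seen and those named as examples that were not called or as passing the filter in 1 group, which were also chosen after their values were seen.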

Additional observations from a re-analysis of the deposited data

How the results depend on the processing

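NKD1 and DKK1 were called lower in each of the 10 alternatives. Over all genes, the calls numbered 2104, between 94 and 696 when 1 library was left out (the lone library of a group was then assumed to vary like the other group), and 381 with no filter, where 28917 rows were tested. For the inhibitors the calls numbered 5, between 2 and 4 with 1 library left out, and 3 with no filter. For the other Wnt pathway genes they numbered 22, between 3 and 13 with 1 library left out, and 7 with no filter. Leaving out 1 library turned the sign of AXIN1 (-0.013 to 0.028) and RNF43 (-0.45 to 0.11), neither of which was called. With a pseudocount of 0.1, the change in log2 ratio was -5.20 for NKD1 to NKD2 (-4.40 with 1). For DKK1 to DKK4 it was -1.53 (-2.84 with 1), which the pseudocount sets because DKK4 is at 0 with IWP2. The replicate numbers, read from the column names, are shared only as numbers. Over the tested rows, the difference between replicates 1 and 2 in DMSO had a correlation of 0.14 with that in IWP2. The fit with a replicate block gave 1901 calls, 5 of them inhibitors. Median-ratio scaling gave 2098 calls and the same 5 inhibitors. DKK4, NKD2 and RNF43 were not tested with a filter at 2 FPKM. Alternatives written for a table of counts were not run. With 2 libraries a group, small differences such as that of ZNRF3 were not resolved.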
